A study of Rattus norvegicus with 4 samples.

Results

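Assembled loci far from named genes are stretches of the rat genome that a transcript assembler put together from liver RNA-seq reads and that lie away from every gene listed by name in the same table. A row was a member when it carried an assembler's own identifier, overlapped no named row on either strand and stood more than 10 kb from the nearest named row. By this rule 3752 of 22303 assembled rows were members in the sevoflurane 0 h library, 4732 of 24896 in sevoflurane 6 h, 4110 of 22889 in desflurane 0 h and 4117 of 23380 in desflurane 6 h. Rows of different libraries were taken as 1 locus when they had the same chromosome and strand and each covered at least 0.8 of the other. The rows then formed 12302 loci, and 587 of them were assembled in all 4 libraries.

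The study sequenced stranded libraries of total RNA from the livers of wild-type rats that breathed 4.5% sevoflurane or 6% desflurane, both inhaled halogenated ethers used for general anesthesia. Rats of the 0 h groups were killed as soon as they lost consciousness and rats of the 6 h groups after 6 h of anesthesia, so every rat, controls included, had received an agent. There was 1 library per group (n = 1), so no difference within an agent has a replicate check and no test was run. A fit of time over both agents, which would take the agents as replicates of each other, was not made. The series description states that control and anesthetized livers were collected 6 h apart, so the duration of anesthesia and the hour of collection cannot be told apart.

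Transcript assembly from aligned reads finds genes that the guiding annotation lacks, together with unspliced stretches, broken pieces of long transcripts and non-coding RNA. Long non-coding RNAs between genes are usually less abundant than messenger RNAs and are often restricted to a tissue. A library of total RNA can also hold RNA without a poly(A) tail, including short structured RNAs.

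For most of the loci whose place could be compared, a later annotation lists a gene between the same named genes around the locus. The loci are given on the build rn6. A RefSeq gene table of another rat assembly, GRCr8, was used for the order of genes alone, by asking which genes it lists between the same flanking named genes. Where the nearest pair could not be placed in that table, a pair with the next named genes outward was used. The genes used stood next to each other in the same order for 498 of the 587 loci, of which 363 had a strand. The strand of a listed gene was taken from its RefSeq promoter. Here and below, genes without a promoter were therefore not counted on the strand of a locus. On that strand, the table listed at least 1 protein-coding gene for 268 of the 363 (73.8%). It listed only long non-coding RNA genes for 46 (12.7%) and no gene so counted for 49 (13.5%). Exactly 1 gene stood on that strand for 157 loci, a protein-coding gene for 124 of them and a long non-coding RNA gene for 33. A listed gene is a candidate by position, since the sequences of the loci could not be compared with it here. How often intervals without a locus, or the opposite strand, list a gene was not counted, so these shares have no background.

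Of the 14 loci past the rule of size with both agents, described further on, 7 had exactly 1 gene listed on their strand. By the way genes were counted, each of the 7 genes has a promoter. The promoters shown here are those of the 2 genes per direction whose loci had the highest mean TPM (a transcript level scaled for length and library size). Each runs 5′ to 3′ from 250 bases before to 50 bases after the annotated start, on build GRCr8. Etnppl (chr2:221846960-221847259, plus strand) and Epb41 (chr5:149521944-149522243, minus strand) are listed at loci that were higher at 6 h. LOC134480602 (chr9:94155031-94155330, plus strand) and LOC102549099 (chr15:57602069-57602368, minus strand), both long non-coding RNA genes, are listed at loci that were lower. Capitals mark matches to the letters of the CCAAT box (CCAAT) and the TATA box (TATAAA), read on either strand. A match was marked wherever it stood, so its position is not that of a working box.
Etnppl: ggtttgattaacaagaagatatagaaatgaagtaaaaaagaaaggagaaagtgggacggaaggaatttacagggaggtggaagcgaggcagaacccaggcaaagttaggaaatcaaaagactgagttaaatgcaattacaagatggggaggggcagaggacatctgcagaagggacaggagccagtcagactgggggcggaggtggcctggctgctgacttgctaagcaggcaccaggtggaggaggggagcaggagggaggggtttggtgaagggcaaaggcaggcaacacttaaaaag
Epb41: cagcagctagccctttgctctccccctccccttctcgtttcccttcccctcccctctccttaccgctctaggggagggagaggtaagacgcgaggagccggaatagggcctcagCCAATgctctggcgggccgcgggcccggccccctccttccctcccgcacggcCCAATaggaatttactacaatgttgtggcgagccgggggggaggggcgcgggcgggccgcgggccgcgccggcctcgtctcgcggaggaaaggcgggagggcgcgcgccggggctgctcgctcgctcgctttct
LOC134480602: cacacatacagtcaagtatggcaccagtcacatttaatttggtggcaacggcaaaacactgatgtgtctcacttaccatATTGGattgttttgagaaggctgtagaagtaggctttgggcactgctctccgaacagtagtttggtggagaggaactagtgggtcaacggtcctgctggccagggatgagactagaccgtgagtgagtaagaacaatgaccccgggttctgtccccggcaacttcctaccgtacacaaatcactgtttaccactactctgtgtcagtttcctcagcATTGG
LOC102549099: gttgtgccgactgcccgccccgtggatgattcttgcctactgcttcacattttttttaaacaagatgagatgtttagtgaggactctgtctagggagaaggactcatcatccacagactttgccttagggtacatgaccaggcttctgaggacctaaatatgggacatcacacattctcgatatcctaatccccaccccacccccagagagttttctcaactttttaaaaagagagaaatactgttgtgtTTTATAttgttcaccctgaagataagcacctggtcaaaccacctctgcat

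The 5 short motifs given in the next sentences were searched on both strands of the 7 promoters and of all 33469 promoters of the table. CCAAT stood 2 times in the Epb41 promoter and 2 times in the LOC134480602 promoter, and 37.5% of all promoters hold it. TATAAA stood 1 time in the LOC102549099 promoter, and 14.2% of all promoters hold it. The E-box CACGTG (6.42% of all promoters), the D-box TTATGTAA (0.893%) and the cyclic AMP response element TGACGTCA (1.83%) were found in none of the 7. The GC content was 70.7% in the Epb41 promoter and 50.7% in the Etnppl promoter, against a median of 51.7% over all promoters.

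The libraries were of liver by their markers, with 6 of 6 hepatocyte genes above a TPM of 2 in each library and a summed level of 89279 to 101242. Aligned bases came to 3.50 Gb in sevoflurane 0 h and to between 5.29 and 5.57 Gb in the other libraries. Read counts are not part of the tables, which leaves the values without counting intervals. A TPM of 2 stood for a mean coverage of 4.72 to 7.28 reads per base. Red blood cell markers summed to 611 TPM in sevoflurane 0 h, 1626 in sevoflurane 6 h, 961 in desflurane 0 h and 1807 in desflurane 6 h, with 5 of 6 listed. The sums were 92.6 to 134 for 5 Kupffer cell markers, 2.30 to 4.92 for 5 T and NK cell markers and 24.5 to 30.1 for 6 pancreas markers. Cela1 alone gave 23.9 to 29.7 of the last sum, and 3 of the 6 were at 0 in every library. In liver tissue, fewer cells of a type and less RNA per cell cannot be told apart.

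The member rows held 9.40% of the assembled TPM in sevoflurane 0 h, 11.0% in sevoflurane 6 h, 9.31% in desflurane 0 h and 12.2% in desflurane 6 h. Between 65.0% and 71.0% of that sum lay in the 5 highest rows of each library. The typical member was low, with a median TPM of 2.31, 1.75, 1.69 and 1.58 in the same order of libraries. Close to the 10 kb limit, rows at 10 to 12 kb had median TPM values of 1.5 to 2.15 and rows at 8 to 10 kb, just outside the rule, had 1.55 to 2.26.

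Few members were assembled alike in every library. The 587 loci matched in all 4 libraries took up 12.4% to 15.6% of the member rows of a library, but 50.1% to 68.2% of their summed TPM. A further 499 loci were matched in 3 libraries, 1320 in 2 libraries and 9896 in 1 library, and 94 groups of rows with ambiguous partners were set aside. Low shares were not particular to members. With all assembled rows matched, 15.9% of members in sevoflurane 0 h were in loci of all 4 libraries. The share was 21.3% for rows within 10 kb of a named row, 19.2% for rows antisense to one and 40.2% for rows over one. In desflurane 6 h the shares were 14.5%, 17.9%, 13.1% and 39.7% in the same order. Matching needed similar bounds, and an assembled row of any kind overlapped the member in all of the other 3 libraries for 67.2% of members in sevoflurane 0 h and for 50% to 53.4% in the others. Members overlapped by no assembled row elsewhere made up 9.46% of members in sevoflurane 0 h and 20.7% in sevoflurane 6 h, with a median TPM of 2.05 and 1.54.

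The 587 loci fell into a long and a short class by strand. The 429 loci with a strand (210 on plus and 219 on minus) had a median span of 18268 bp and a median mean TPM of 6.75, and 40 of them spanned more than 100 kb. The 158 loci without a strand had a median span of 557 bp and a median mean TPM of 9.88. Loci with a strand were spread nearly evenly around the nearest named gene. Of them, 113 lay downstream of it on its strand, 111 upstream on its strand, 102 downstream on the opposite strand and 103 upstream on the opposite strand. The 587 loci lay in 476 intervals between named genes, and 86 intervals held 2 or more of them.

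**Figure D1:**
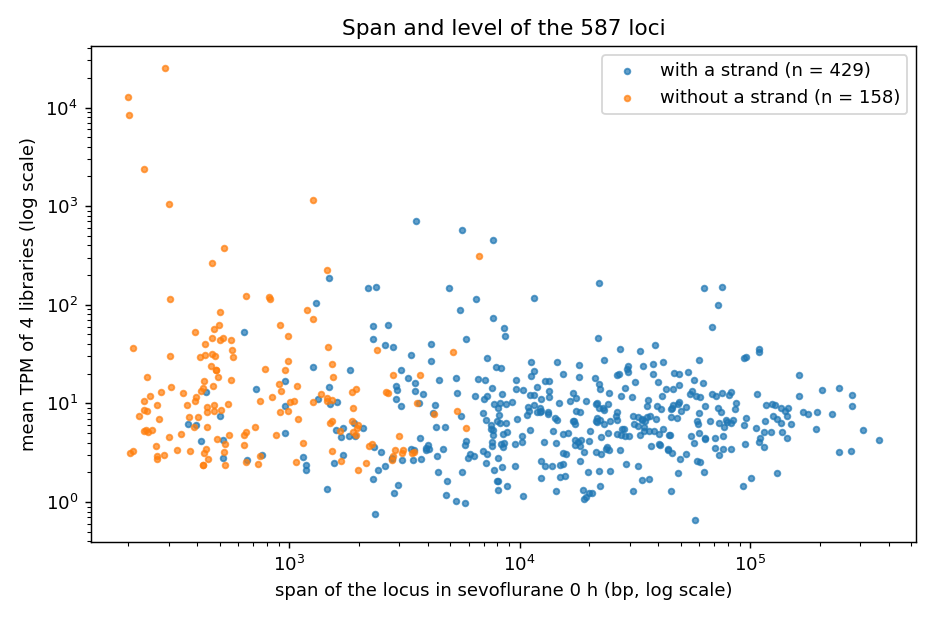
Span of each of the 587 loci in bp against its mean TPM over the 4 libraries, both on log scales, with 1 point per locus and colour for whether the assembler gave a strand. The loci without a strand reach the highest levels at spans near 200 to 300 bp, and the loci with a strand extend to 362021 bp.

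The highest loci were short and had no strand. The highest was chr12:24796277-24796565, 289 bp between Mettl27 and Eln, with TPM values of 26205 in sevoflurane 0 h, 26700 in sevoflurane 6 h, 21944 in desflurane 0 h and 24609 in desflurane 6 h. The 200 bp locus chrX:35488136-35488335 between Rai2 and Gja6 followed with 13766, 12769, 11458 and 12670, and the 202 bp locus chr8:63239745-63239946 between Tbc1d21 and Insyn1 with 9028, 8446, 7653 and 8157. These 3 loci kept nearly the same level at 0 h and 6 h, the ratios lying between 0.93 and 1.12. The 235 bp locus chr4:139165505-139165739 between Crbn and Lrrn1 had 1901, 2775, 2324 and 2495, and the 1265 bp locus chr8:181064-182328, which has no named gene before it and Gucy1a2 after it, had 1147, 1097, 1106 and 1227. A further short row between Ptdss1 and Sdc2 on chromosome 7, named after its values were seen, was as abundant (15821, 14231, 16264 and 24709) but was not matched in all 4 libraries because its span changed between 206 and 362 bp.

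The 3 longest loci each had a single gene listed on their strand, and all 3 are protein-coding. The locus chr10:75677857-76039877 on minus between Ccdc182 and Akap1 spanned 362021 bp, where GRCr8 lists Msi2, an RNA-binding protein of stem cells. Its TPM was 4.37, 4.08, 5.56 and 3.19 with both sevoflurane libraries first, each agent's 0 h before its 6 h, an order kept below. The locus chr14:64686774-64994485 on plus between Gba3 and Kcnip4 (307712 bp; Adgra3, an adhesion G protein-coupled receptor) had 5.99, 5.61, 6.06 and 3.67. The locus chr4:49056022-49333669 on plus between Ing3 and Wnt16 (277648 bp; Cped1) had 10.4, 17.0, 9.07 and 11.8. By TPM, none of the 3 was past the rule of size at 6 h with either agent.

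Further abundant loci with a strand, chosen after their values were seen, were also within the rule. The highest of all loci with a strand was chr8:37446797-37450360 on minus between LOC100360049 and LOC688335, with 852, 498, 916 and 550, so both 6 h livers were below both controls. A locus on plus between Kng2 and Hrg, at chr11:81509120-81516776, had 455, 418, 503 and 428, and Kng2l1, a kininogen relative, is listed there. The locus between Traf1 and Rab14 at chr3:14207032-14229126, where the table lists C5, the fifth component of complement, and its relative C5l1, had 183, 147, 182 and 146. The locus at Hyi, a hydroxypyruvate isomerase, had 67.5, 61.8, 68.8 and 50.6, and that at Tomm5, a subunit of the mitochondrial import pore, 39.3, 39.3, 37.4 and 31.7. The locus at Acad8, an enzyme of valine breakdown, had 20.2, 22.3, 24.0 and 20.9. Antxr2, an anthrax toxin receptor, had 20.6, 39.7, 23.7 and 30.5 at its locus, with the 6 h livers above the controls.

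Loci that share a listed gene are not independent. The 157 loci with 1 listed gene stood for 136 different genes, and 19 genes had 2 or 3 loci. The loci of 1 gene changed with the same sign for 9 of the 19 genes with sevoflurane and for 15 of 19 with desflurane. The median gap between the lowest and highest log2 change within a gene was 0.29 with sevoflurane and 0.19 with desflurane. The gap was widest with sevoflurane at Ctso, the protease cathepsin O, where 1 locus went from 11.0 to 5.32 and the other from 15.7 to 19.2.

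To ask what changed with anesthesia, the 6 h library was set against the 0 h library of its agent. The rule of size asked for a TPM above 2 in the higher library of a pair and a ratio above 2. Fold changes are ratios of TPM, and log2 changes are of TPM + 1, which understates the change of low loci. With sevoflurane, 566 loci were above the minimum, 33 were higher (5.83%) and 25 lower (4.42%), where 5.04% of named genes were higher and 3.71% lower (8.75% in all). With desflurane, 556 loci were above the minimum, 18 were higher (3.24%) and 37 lower (6.65%), against 4.1% and 5.55% of named genes (9.65% in all). The shares lay close to those of named genes and of the other assembled loci, of which 4.52% were higher and 3.42% lower with sevoflurane (7.94% in all) and 3.58% and 4.53% with desflurane (8.11% in all). The minimum was reached in a single library of the pair by 37 loci with sevoflurane and by 38 with desflurane. Such a locus had 1 value above 2 and the other not, so it was bound to differ, though not by the ratio. With a TPM above 2 asked of both libraries, 25 loci were higher and 16 lower with sevoflurane. With desflurane, 15 were higher and 23 lower.

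The balance of higher and lower calls changed when the libraries were scaled, and what set it was not tested. The median log2 change over 584 loci with a mean TPM of at least 1 was 0.04 with sevoflurane and −0.11 with desflurane, and over named genes it was 0.05 and −0.10. With libraries scaled to a common median ratio of the named genes, the calls came to 29 higher and 29 lower with sevoflurane. With desflurane they came to 22 higher and 29 lower, so 43.1% of calls were higher in place of 32.7%. Loci with a strand were past the rule more often (12.5% with sevoflurane and 11.8% with desflurane) than loci without one (4.43% and 5.06%).

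**Figure D2:**
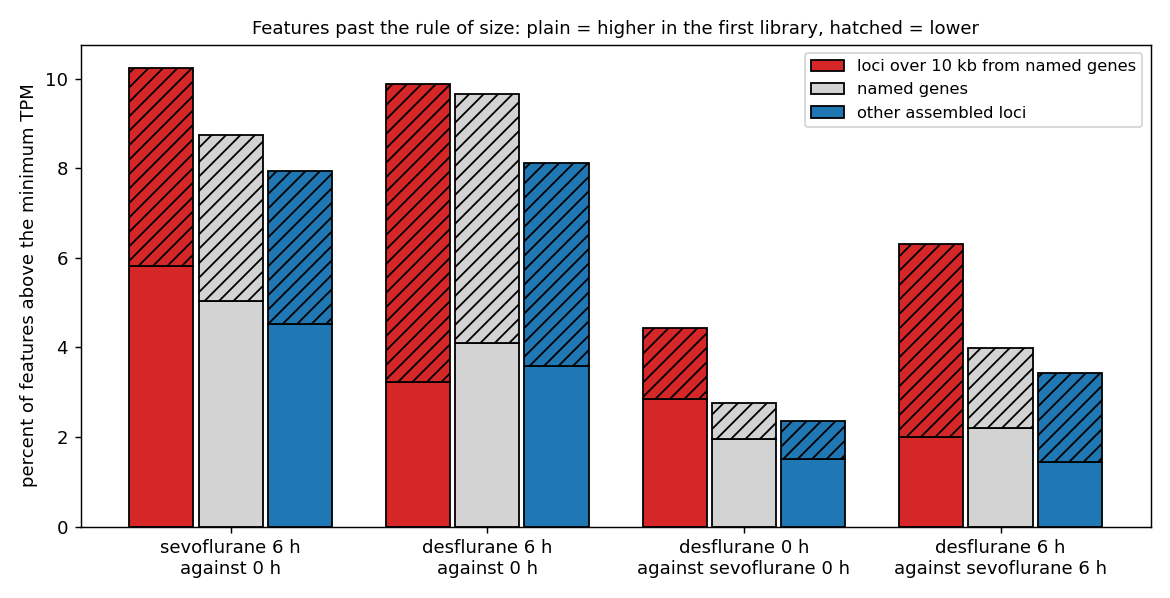
Percent of features above the minimum TPM that were past the rule of size in 4 comparisons of single libraries, for the loci over 10 kb from named genes, the named genes and the other assembled loci. Plain parts are higher and hatched parts lower in the library named first. The loci reach 10.2% and 9.89% in the comparisons of time, and 4.44% between the controls.

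The same rule applied between animals of the same time shows how far single libraries lie apart. Of 563 loci, 16 had the higher value in the desflurane control and 9 in the sevoflurane control, which is 4.44%. Of named genes 2.76% were past the rule (1.96% and 0.799%), and of other assembled loci 2.35% (1.51% and 0.848%). After the scaling to named genes, whose median log2 difference between the controls was 0.11, the 2 counts were 10 and 17, so the larger count changed sides. Between the 6 h livers, 11 loci were higher and 24 lower with desflurane, 6.32% of 554. Of named genes 3.99% were past the rule (2.21% higher and 1.77% lower), and of other assembled loci 3.44% (1.45% and 1.99%). Scaling gave 13 higher and 17 lower, so 43.3% of calls were higher in place of 31.4%. The loci far from named genes were thus past the rule more often than named genes between rats of the same time, in 1 pair of libraries per time.

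In all, 14 loci were past the rule with both agents in the same direction, 6 higher and 8 lower of 553 (1.08% and 1.45%). Of named genes, 2.54% were higher and 1.5% lower with both, and of other assembled loci 1.94% and 1.26%. The highest gain with both agents was at the candidate locus of Etnppl, an enzyme that breaks down phosphoethanolamine, and the deepest fall was at a 1263 bp locus between Il1rapl1 and Mageb5.

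The locus chr2:235738441-235760349 on plus lies between Casp6 and Ostc, 56.0 kb from Ostc. Its TPM was 10.5 in sevoflurane 0 h, 94.6 in sevoflurane 6 h, 7.06 in desflurane 0 h and 70.1 in desflurane 6 h. Both 6 h livers were above both controls, by 8.99-fold with sevoflurane and 9.93-fold with desflurane. Etnppl, whose promoter is printed above, is the gene that GRCr8 lists on this strand. The order of genes is not fully kept there, since GRCr8 places Sec24b between Casp6 and Ostc and the deposited tables hold Casp6 at 2 places, with Sec24b beside the other one. The nearest named gene, Ostc, changed by −0.14 and −0.30 on the log2 scale.

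The locus chr11:27599434-27610965 on plus, 201 kb from the end of Bach1, had 4.79, 12.2, 5.91 and 25.9. It was 2.55-fold higher with sevoflurane and 4.38-fold with desflurane. Between Bach1 and Grik1, GRCr8 lists no gene with a promoter on the strand of the locus. Bach1, a repressor of heme oxygenase, lies on the same strand and changed by 1.26 and 1.66 on the log2 scale.

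The locus chr5:150080194-150243127 on minus between Srsf4 and Oprd1 had 10.9, 21.9, 11.1 and 34.0, a gain of 2.01-fold with sevoflurane and 3.06-fold with desflurane. Epb41, which encodes protein 4.1 of the membrane skeleton, best known from red blood cells, is its single listed gene. The red blood cell markers given above were also higher in both 6 h libraries, and their part in this result was not tested. The nearest named gene, the splicing factor Srsf4, changed by 1.86 and 1.41 on the log2 scale.

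The locus chr6:104437198-104519973 on plus between Plekhd1 and Srsf5, where Susd6, a membrane protein with a sushi domain, is the single listed gene, had 1.39, 3.90, 2.04 and 6.50. The locus chr1:187832055-187853809 on minus, upstream of Arl6ip1, had 5.66, 11.7, 7.59 and 15.3. Smg1, a kinase of nonsense-mediated mRNA decay, is 1 of 3 genes listed on its strand. The locus chr8:96168734-96170412 on minus between Syncrip and Zfp949, where GRCr8 lists Syncrip-ps2, had 2.43, 5.63, 2.51 and 7.72. Reads of Syncrip itself, an RNA-binding protein, could be split between such places, so this locus is uncertain. The gains of these 3 loci lay between 2.02-fold and 3.19-fold.

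The locus chrX:60210454-60211716 on minus had 48.5, 7.16, 37.8 and 1.08. The values of both controls were higher than those of both 6 h livers, 6.78 times with sevoflurane and 35.0 times with desflurane. It lies 637 kb from the nearest named gene, Mageb5, which is listed at 0 in all 4 libraries, and GRCr8 lists 4 protein-coding genes on its strand between the flanking genes, among them Dcaf8l1.

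The locus chr9:93061865-93070456 on plus lies 10.2 kb upstream of Psmd1, a subunit of the proteasome, just inside the distance rule. It had 94.7, 28.7, 89.6 and 20.7, which is 3.29 times lower with sevoflurane and 4.34 times lower with desflurane. The long non-coding RNA gene LOC134480602, whose promoter is printed above, is the gene listed on its strand. Psmd1 changed by −0.12 and −0.10 on the log2 scale. The locus chr15:57910961-57912454 on minus, 16.5 kb from Tpt1, had 26.8, 10.5, 16.0 and 5.02, and the long non-coding RNA gene LOC102549099 is listed there.

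The locus chr9:10894792-10905630 on minus between Dpp9 and Sema6b had 10.1, 3.65, 17.9 and 5.04, and Tnfaip8l1, a relative of the death effector domain protein Tnfaip8, is listed with a non-coding RNA gene. The locus chr1:129254679-129333930 on plus, 47.6 kb downstream of Igf1r, had 8.98, 3.00, 9.89 and 4.23. A further 3 loci completed the 8. They lay between Crip1 and Dgcr2 (12.2, 5.70, 10.7 and 3.92), between Mctp2 and Rgma (3.05, 1.43, 2.44 and 1.18) and between Tmem154 and Dear (2.78, 0.927, 2.87 and 1.37). The last 2 were below the minimum of 2 in both 6 h libraries.

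**Figure D3:**
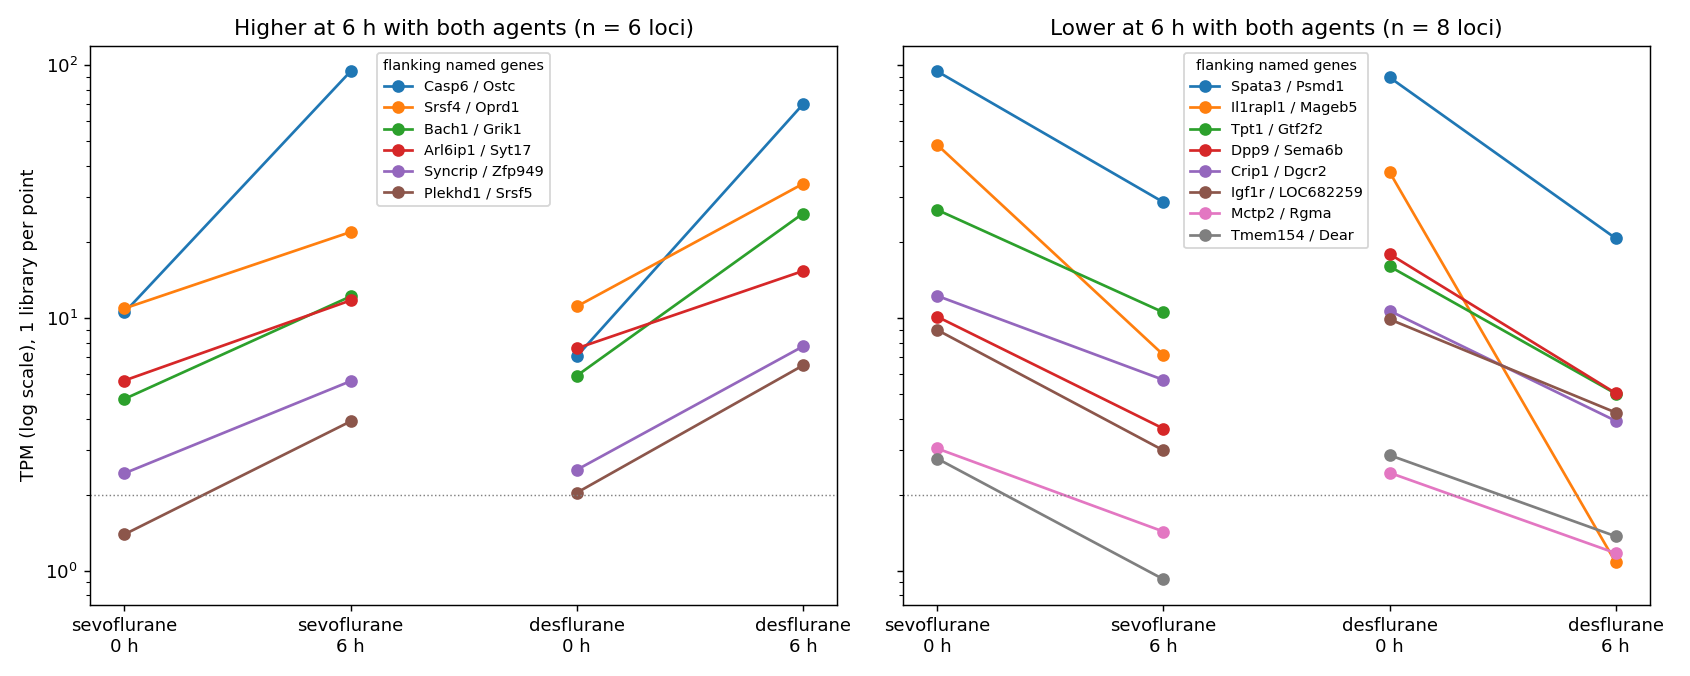
TPM on a log scale in the 4 libraries for the 6 loci higher and the 8 loci lower at 6 h with both agents, with 1 line per locus and agent, named by the flanking genes. The dotted line is the minimum TPM of 2. The Casp6 / Ostc locus rises from 10.5 to 94.6 and from 7.06 to 70.1, and the Il1rapl1 / Mageb5 locus falls from 48.5 to 7.16 and from 37.8 to 1.08.

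The calls with both agents depended on which deposited column was read. Beside TPM, each row has a coverage, the mean read depth per base. Divided by the coverage that 1 TPM stands for in its library, coverage gave the TPM back within 1% in all 4 libraries for 309 of the 587 loci, for 96.2% of loci without a strand and 36.6% of loci with one. How coverage was made for the other rows is not given in the sources used here. By scaled coverage, 1 of the 6 higher loci and 4 of the 8 lower loci were past the rule with both agents. They were the Casp6 / Ostc locus (10.5, 94.6, 7.06 and 69.9) and the loci at Il1rapl1 / Mageb5, Spata3 / Psmd1, Dpp9 / Sema6b and Mctp2 / Rgma. Over all loci, scaled coverage put 4 higher and 6 lower past the rule with both agents. Those not called by TPM were higher at Ghr / Fbxo4, Echdc3 / Upf2 and Lima1 / Atf1. They were lower at Mnx1 / Dnajb6 and Vrk1 / Bcl11b. At Srsf4 / Oprd1 the gain was 1.14-fold with sevoflurane and 1.23-fold with desflurane, and at Arl6ip1 / Syt17 it was 1.33-fold and 1.39-fold. At Bach1 / Grik1 the desflurane values were 5.91 and 9.46, a gain of 1.60-fold. With sevoflurane the gain at Syncrip / Zfp949 was 1.94-fold, and the Tpt1 / Gtf2f2 locus was 1.73 times lower. The direction turned with desflurane at Plekhd1 / Srsf5 (2.04 at 0 h and 1.61 at 6 h), at Crip1 / Dgcr2 (1.04 and 3.92) and at Igf1r / LOC682259 (0.961 and 3.27). It turned with sevoflurane at Tmem154 / Dear (0.557 and 0.927). The longest locus, at Msi2, was within the rule by TPM but went from 4.25 to 0.693 with sevoflurane by scaled coverage.

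Both controls serve 1 agent each, so the 2 comparisons of time share no library. Across the 584 loci the log2 changes with the 2 agents correlated with r = 0.43 (Pearson) and rho = 0.32 (Spearman), and 61.1% of loci had the same sign. Over 9201 named genes these values were 0.63, 0.46 and 62.9%. The points of each axis come from 1 pair of libraries and share its depth and scale, so these are descriptions across loci. Of the 33 loci higher with sevoflurane, 26 were positive with desflurane (78.8%, against 85.4% of named genes so called), and of the 25 lower, 20 were negative (80.0% against 87.3%). Of the 18 loci higher with desflurane, 15 were positive with sevoflurane (83.3% against 90.1%), and of the 37 lower, 23 were negative (62.2% against 79.4%).

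**Figure D4:**
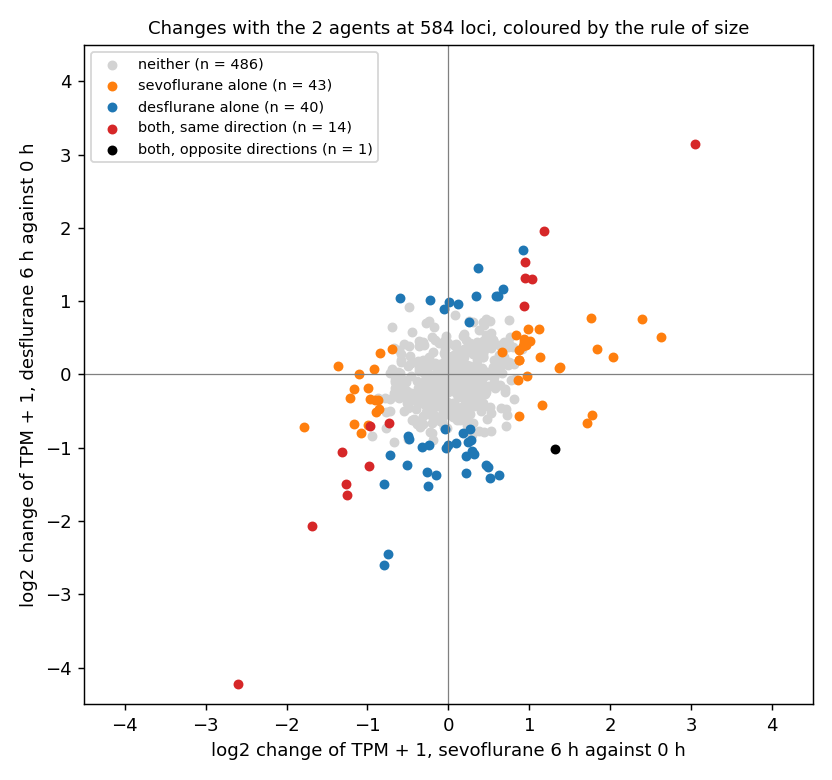
Log2 change of TPM + 1 from 0 h to 6 h with sevoflurane (horizontal axis) and with desflurane (vertical axis) for 584 loci, 1 point per locus, coloured by the comparisons in which the locus was past the rule of size. The 14 loci past the rule with both agents in the same direction lie in the upper right and lower left, and 1 locus lies in the lower right with opposite directions.

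With sevoflurane, 4 further loci made up the 5 largest gains. The locus chr2:53706549-53746746 on minus between Ghr, the growth hormone receptor, and Fbxo4 had 1.14, 12.2, 2.36 and 3.78. It was 10.7-fold higher with sevoflurane by TPM, and its scaled coverage was 1.14 at 0 h and 2.73 at 6 h. With desflurane its scaled coverage was 1.85 at 0 h and 3.78 at 6 h, 2.04-fold higher and also past the rule. The locus chr16:20229697-20236159 on plus between Fcho1 and Map1s had 24.4, 132, 113 and 190. The sevoflurane control stood apart at this locus, since the other control was already 4.62-fold above it. The locus chr11:81576779-81583993 on minus, between the plasma protein genes Kng2 and Hrg, had 11.8, 51.5, 23.7 and 28.3, and the locus chr6:136818898-136827653 on plus between Kif26a and Tmem179 had 2.76, 12.4, 4.40 and 5.88. By scaled coverage the last was 2.76 at 0 h and 3.98 at 6 h with sevoflurane, 1.44-fold and not past the rule. In each of these loci the TPM of sevoflurane 0 h was the lowest of the 4.

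The largest falls with sevoflurane, beside the loci called with both agents, were at chr6:30402581-30410220 on plus, between Fam228a and a row named Rn5-8s, and at chr15:19429510-19429895 between Ptger2 and Gpr137c. The first had 123, 35.2, 85.2 and 51.2 and the second 7.62, 2.36, 6.36 and 6.94. By scaled coverage the first was 33.4 and 21.7 with sevoflurane, 1.54 times lower and not past the rule. With desflurane its scaled coverage was 28.8 and 12.0, which is 2.40 times lower and past the rule. The second was lower in sevoflurane 6 h alone, by 3.23 times against its control.

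With desflurane, the further large gains were at chr19:59496931-59502231 on minus between Kcnk1 and Tomm20, with 9.05, 18.1, 10.2 and 35.5, and at chr3:105659034-105667179 on minus between Aqr and Dph6, with 4.79, 6.45, 4.66 and 14.4. The first was 1.997-fold higher with sevoflurane, just short of the rule. Zfp770, a zinc finger protein, is listed at the second. The further large falls were at chr15:59632306-59666855 on minus between Serp2 and Dnajc15, with 7.19, 3.73, 9.40 and 0.714, and at chr1:94573815-94587269 on plus between Ccne1 and Plekhf1, with 20.9, 12.0, 29.6 and 4.58. Lacc1, an enzyme of macrophage purine metabolism, is 1 of 4 genes listed at the first, and C1h19orf12, a mitochondrial membrane protein, is the single gene listed at the second. By scaled coverage the first was 1.60 and 0.714 with desflurane, under the minimum of 2 and not called, and the second was 15.5 times lower in place of 6.47. By TPM both loci were also lower in sevoflurane 6 h than in its control, by 1.93 and 1.73 times, which is within the rule.

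The nearest named genes of called loci moved in both directions. Of the 33 loci higher with sevoflurane, 19 had a nearest named gene with a mean TPM of at least 1. At 6 h, 10 of these were higher (52.6%, against 52.3% over all loci) and 9 lower. Of the 25 lower with sevoflurane, 15 had such a neighbour, 7 higher and 8 lower. Of the 18 higher with desflurane, 13 had one, 7 higher and 6 lower. Their median log2 change was 0.16, against −0.14 for all loci. Past the rule and higher were 4 of these 13, against 22 of 348 over all loci. Of the 37 loci lower with desflurane, 25 had such a neighbour, of which 19 were lower (24.0% were higher), where 36.2% of the neighbours of all 587 loci were higher. The neighbours' median log2 change was −0.15 for these loci and −0.14 for all loci. Bach1 and Srsf4, given above, were among the neighbours that moved with their locus.

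The largest differences between the controls included the Fcho1 / Map1s locus given above. The locus chr1:148192314-148268029 on plus, 72.5 kb from Cyp2c7, a steroid-metabolizing cytochrome P450, had 52.3, 132, 279 and 138. By TPM it was 2.52-fold higher with sevoflurane and 2.03 times lower with desflurane, the 1 locus past the rule in opposite directions. The 6 h livers were nearly level by TPM. By scaled coverage it had 4.89, 23.5, 137 and 63.1, so the 6 h livers were not level. That is 4.81-fold higher with sevoflurane and 2.17 times lower with desflurane. Cyp2c genes are a family of near copies, so reads could be split among them and this locus is uncertain. At this locus and at Fcho1 / Map1s the difference between the controls was larger than that between the 6 h livers.

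Some loci were assembled at 1 time alone. With no assembled row over them in either library of the other time, 62 loci were found in both 6 h libraries and 47 in both 0 h libraries, and 19 were found in both sevoflurane libraries alone and 48 in both desflurane libraries alone. They come from 243, 249, 201 and 225 loci matched in those 2 libraries alone, in the same order. The counts were not made for other assembled rows, so whether they are particular to these loci is not known. A locus without a row has no deposited value, so no fold is given. Of the 62, 17 had a TPM above 2 in both libraries, and 16 of the 47 did.

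The highest levels were found at 6 h, in a few rows. Of the 62 loci, 3 had a TPM above 100 in both libraries, and none of the 47 did. The median of the mean TPM was 1.40 for the 62 loci and 2.13 for the 47. The 289 bp row chrX:23467571-23467859, 11.0 kb from Shroom2, had 9578 in sevoflurane 6 h and 9060 in desflurane 6 h. The 244 bp row chr17:90799672-90799915 beyond Ero1b had 2918 and 2637, and the 235 bp row chr1:246926602-246926836 between Rfx3 and Slc1a1 had 1043 and 985. All 3 had no strand, and in sevoflurane 6 h 2 of them had the spans (289 and 235 bp) that the abundant matched loci on chromosomes 12 and 4 had in sevoflurane 0 h.

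No locus at 0 h alone was as abundant as those rows. The highest were chr20:28392151-28393476 on minus between Edar and Septin10 (14.0 in sevoflurane 0 h and 11.7 in desflurane 0 h), chr9:5232971-5233536 between Sult1c3 and Slc5a7 (8.03 and 6.09) and chr2:55055274-55055743 between Ptger4 and Dab2 (7.32 and 3.73). Among the 6 h loci, 1 of 67375 bp on plus between Ppargc1a, a coactivator of fasting metabolism, and Gba3 had 5.14 and 4.23. It was chosen after its values were seen.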

How the data were processed

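Gene abundance tables of 4 rat liver RNA-seq libraries were used, 1 per group, and groups were taken from the sample titles. The submitters' processing notes name HISAT2, SAMtools, StringTie and the build rn6, with versions and annotation not given in the sources used here. Values of TPM deposited by the authors were handled as a score, since their assembled rows alone sum to 1000000 and named rows add 0.766 to 0.789 of that. The authors' FPKM served to estimate aligned bases, and the deposited coverage, a signal per base, served as an alternative level. The paper linked to the series reports a repeat experiment and was used for style alone.

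Rows were classified, matched and compared in Python 3.11.15 with pandas 2.3.3 and numpy 2.4.6. The matching and the rule of size were tested on simulated data. Distances used the named rows of each library's own table, of which 17774 of 18060 were the same in all 4. The members, lists and alternatives were chosen with earlier results of these data known. The loci named were the 5 of highest mean TPM, the 3 longest, the 5 largest changes past the rule per agent and direction, the 5 largest per direction with both agents, the 3 largest between the controls, and the 3 highest among those at 6 h or 0 h alone. The other loci past the rule with both agents were added. Of the loci so chosen, 1 is not reported here. Of 17455 symbols of named rows, 17087 were found in the RefSeq table of GRCr8, and none of its gene coordinates were used. Promoters and their coordinates came from RefSeq on GRCr8. Alternatives changed the minimum, ratio, scaling, overlap, distance, chaining and control library.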

Additional observations from a re-analysis of the deposited data

Results flagged for a closer look

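The locus between Cyp2c7 and Mpp1 changed in opposite directions with the 2 agents. Its log2 change of TPM + 1 was 1.32 with sevoflurane and −1.01 with desflurane, a difference of −2.33, which was not tested. The 2 controls differed 5.34-fold at this locus by TPM and 28.0-fold by scaled coverage. Its coverage was 11.5 and 80.5 in the sevoflurane libraries (0 h, 6 h) and 473 and 230 in the desflurane libraries.

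Assembled rows on references that hold no named row were outside the comparisons. Their summed TPM was 3105 in sevoflurane 6 h, a little above the controls (2957 and 2791), and 7966 in desflurane 6 h. The mitochondrial chromosome gave 998, 1190, 974 and 6152 of these sums, as 1 row per library. Without it the sums were 1959, 1914, 1818 and 1814.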

How the results depend on the processing

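No paired analysis was possible because the comparisons are within an agent, where each time has 1 library, and a fit of time with the agent as a block was not run. Of 113 recomputed values, 74 stayed within the limit (1.5 times for a count), 37 moved and 2 reversed. The median log2 change with sevoflurane turned from 0.04 to −0.0084 after scaling by named genes and to −0.02 (−0.0197) against the other agent's control. With desflurane it went from −0.11 to −0.011 after that scaling and to −0.044 against the other control. Both values counted as within the limit, which for a median was set on the difference, so the desflurane median was not stable. Counts are given as higher and lower with sevoflurane, higher and lower with desflurane, between the controls and between the 6 h livers (33, 25, 18, 37, 25 and 35 as reported). A ratio above 3 gave 10, 8, 7, 12, 4 and 8, with 1 higher and 2 lower with both agents. A distance over 50 kb left 306 of the 587 loci and gave 18, 13, 9, 21, 12 and 20, with 4 lower with both. An overlap of 0.5 gave 58 higher and 47 lower with sevoflurane, 55 between the controls and 69 between the 6 h livers. An overlap of 0.9 gave 3 higher and 5 lower with both and 22 between the 6 h livers. A minimum TPM of 5 gave 15 lower with sevoflurane and 22 between the 6 h livers. A TPM above 2 in both libraries gave 16 lower with sevoflurane, 23 lower with desflurane, 5 lower with both and 21 between the 6 h livers. Of alternatives chosen after seeing the data, matching in the 2 libraries alone gave 51, 61, 43, 70, 77 and 90, and scaled coverage gave 48 between the controls and 58 between the 6 h livers. Where recomputed and not given, counts stayed within 1.5 times. Similar counts did not mean the same loci. By scaled coverage, 23 of the 33 loci higher and 19 of the 25 lower with sevoflurane were also called. With desflurane, 11 of the 18 higher and 27 of the 37 lower were. Of the 6 loci higher and 8 lower with both agents, 4 and 6 were shared after scaling and 3 and 5 against the other control. The cause of these shifts was not tested. With 1 library per group and no read counts, neither the spread between rats nor the counting error is known, and low loci rest on a few reads per base.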
